A study of Mus musculus with 49 samples.

Results

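The comparison described here set the hippocampus of FFD-C mice against that of HFD-C mice. Its members were chosen by group code alone and come to 17 of the 49 libraries of the series, with 8 libraries in FFD-C and 9 in HFD-C. All mice belonged to the inbred strain C57BLKS/J and were 3 months old, with 1 library per mouse. The codes are not explained in the labels. Because the series title speaks of maternal obesity, offspring and a fibre-rich diet, the letters before the hyphen were taken to name what the dam ate and the final letter what the offspring ate. Read in this way, FFD-C and HFD-C mice ate the same diet (C) and differed in the diet of their dams. The comparison then asks whether the maternal diet FFD, in place of HFD, left a difference in the adult hippocampus of offspring that all ate diet C.

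FFD-C held 4 libraries marked XX and 4 marked XY, and HFD-C held 4 marked XX and 5 marked XY. A second pair of groups, FD-C and CD-C with 8 libraries each and 4 of each mark, differs by the same kind of letter in the dam's code and is given beside the comparison near the end. Sample titles also carry a prefix that may mark a litter or a dam, which no label states. The 8 FFD-C libraries fall under 4 prefixes, the largest with 3 libraries, and the 9 HFD-C libraries under 6 prefixes, the largest with 4. What the diets contained, how long they were fed and how many dams there were is not given in these sources. If pups of a prefix share a dam, the p-values below treat litter mates as separate mice and may be too small. With the prefix as a random block in the fit over all 49 libraries, the correlation within a prefix was 0.036.

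The hippocampus lays down memories of places and events. Granule cells of its dentate gyrus receive input from the cortex and pass it to CA3 pyramidal cells, which project to CA1. Excitatory synapses on these neurons are built around glutamate receptors held by scaffold proteins such as the Shank family, and the firing of the neurons is set by voltage-gated channels. Hippocampal cells also run a circadian clock, in which Clock and Arntl drive the Per and Cry genes, and the F-box protein Fbxl21 bears on how long the Cry proteins last. Expression was read as FPKM, fragments scaled to transcript length and library depth, so that levels of different genes can be compared per length. In bulk tissue, fewer cells of a type and less RNA per cell cannot be told apart.

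Most markers of the labelled tissue were present in every library, but 1 FFD-C library stood apart at part of them. FFD-C library 1, an XX library, had 0.368 FPKM of C1ql2, a synaptic protein of dentate granule cells, against 9.05 to 111 FPKM in the other 16 libraries. Its value of Prox1, the transcription factor that defines granule cells, was 1.49 FPKM against 5.32 to 38.1 FPKM. Dsp, the desmosomal plakin found in granule cells, was listed at 0, against 0.894 to 25.6 FPKM in the other 16, and Fibcd1, a CA1 marker, stood at 11.6 FPKM against 145 to 383 FPKM. This library was the lowest of the 17 for 6 of 13 dentate markers, 7 of 11 CA1 markers and 2 of 11 markers of CA2 and CA3. Other members of these lists stood among the higher libraries. The dentate markers C1ql3 (81.0 FPKM, others 45.7 to 96.2) and Calb1 (102 FPKM, others 70.4 to 112) ranked 15 of 17 from the lowest. The CA1 markers Mpped1 and Nov ranked 13 and 12. FFD-C library 1 was the highest for 6 of 10 neocortex markers, among them Lamp5 with 156 FPKM against 25.9 to 43.8 FPKM. For the neocortex marker Tle4 it was the lowest, with 14.3 FPKM against 16.9 to 30.5 FPKM. It was also the highest for 5 of 13 endothelial markers and 2 of 4 hypothalamic markers, and the lowest for 4 of 13 choroid plexus markers.

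The mean log2 level of the dentate list was 2.66 in FFD-C library 1 and 3.05 in FFD-C library 6, and the other 15 libraries lay between 3.87 in HFD-C library 8 and 5.19 in FFD-C library 5. FFD-C library 3 stood apart in another measure, the dependence of its values on transcript length, given further below. Libraries 1 and 3 had the lowest median Pearson correlations with the other 16 libraries over tested rows, 0.943 and 0.954, against 0.961 to 0.969 for the rest. Choroid plexus RNA varied widely in both groups. Ttr, the transthyretin carrier made by that epithelium, ran over 6.07 to 4047 FPKM in FFD-C and 11.2 to 4718 FPKM in HFD-C. Over 5140 rows of low level, the typical nonzero value of each library was set against the row medians. The inverse of that ratio lay between 0.975 and 1.04 in the 17 libraries. A library's own values enter those medians, so the measure cannot show that depth was equal, and total reads are not stated. The leading results are given with all 17 libraries and again without library 1 or without libraries 1 and 3, an omission chosen after the data had been seen.

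No gene passed the threshold between FFD-C and HFD-C. In limma, fitted on log2(FPKM + 0.5) over all 49 libraries with the XX or XY mark as a term, 0 of 16029 rows (0%) had an adjusted p under 0.05, and the smallest adjusted p was 0.482. At an unadjusted p under 0.05 there were 956 rows (5.96%), of which 599 (3.74%) had lower values in FFD-C and 357 (2.23%) had higher values. Over all rows 8253 differences lay below 0 (51.5%) and 7776 above it (48.5%). The counts at this threshold, taken anew under each scaling, changed with it. There were 508 lower and 495 higher rows after quantile normalization, and 432 lower and 552 higher with each library centred on its median. Without FFD-C library 1 the unadjusted count was 366 lower and 297 higher, and without FFD-C libraries 1 and 3 it was 227 lower and 178 higher.

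The groups did not overlap at 1 row with higher values in FFD-C (0.00624% of rows) and at 4 with lower values (0.025%). None of these 5 falls under the rule for named genes, and they were picked after their values were seen. Acadsb, the mitochondrial enzyme that oxidises short branched-chain acyl-CoA from isoleucine, ran over 35.4 to 46.9 FPKM in FFD-C and 48.5 to 55.7 FPKM in HFD-C, so that its ranges did not meet (log2 difference -0.28, SE 0.089). Zbtb41, a zinc-finger protein, had 7.85 to 11.7 FPKM in FFD-C and 11.8 to 14.7 FPKM in HFD-C (log2 difference -0.38, SE 0.15). Klhl28, of the family of Kelch adaptors of ubiquitin ligases, had 1.67 to 2.597 FPKM in FFD-C and 2.61 to 3.36 FPKM in HFD-C (log2 difference -0.34, SE 0.15). The row shared by Tll2 and Tm9sf3, whose reads cannot be assigned to either gene, had 339 to 431 FPKM in FFD-C and 432 to 469 FPKM in HFD-C. The row with higher values was the predicted gene Gm8566, with 3.75 to 5.33 FPKM in FFD-C and 2.86 to 3.70 FPKM in HFD-C. None of the 5 passed the test (limma adjusted p = 0.761 for each). Transcripts of Acadsb, Zbtb41 and Klhl28 have 6081, 8361 and 6459 bases, in the group of longest transcripts described further below. That of Gm8566 has 465 bases, in the shortest group. For FD-C minus CD-C the log2 differences were -0.27 for Acadsb, -0.37 for Zbtb41 and -0.37 for Klhl28. They were -0.27 for the row of Tll2 and Tm9sf3 and -0.094 for Gm8566.

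Fbxl21 had the smallest p of the comparison. It encodes an F-box protein that binds the clock repressors Cry1 and Cry2. The gene lies at chr13:56522472-56537898 on the plus strand (GRCm38). Across libraries its lowest, median and highest values were 1.70, 2.06 and 3.00 FPKM in FFD-C, against 2.77, 3.74 and 5.59 FPKM in HFD-C. All 8 FFD-C libraries lay under the HFD-C mean, and the ranges touched only between the highest FFD-C library and the lowest HFD-C library. The difference was -0.66 on the log2 scale (SE 0.14; limma adjusted p = 0.482). It was -0.62 without FFD-C library 1 and -0.60 without libraries 1 and 3, -0.58 in XX libraries and -0.74 in XY libraries. At 2 to 4 FPKM this is a gene of low level, for which the pseudocount understates the difference.

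**Figure D1:**
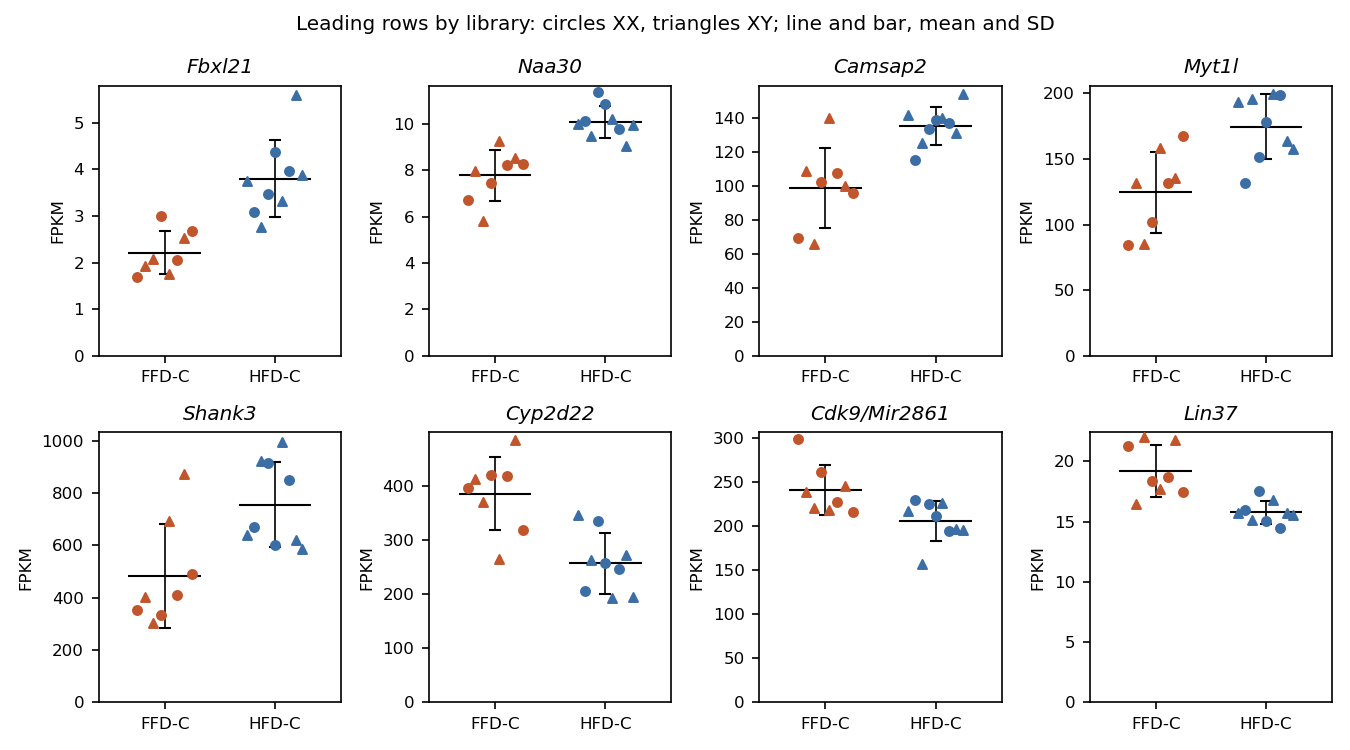
FPKM of 8 of the leading rows in each library, with FFD-C at the left and HFD-C at the right of every panel (circles XX, triangles XY; line and bar, mean and SD). Fbxl21 ran over 1.70 to 3.00 FPKM in FFD-C and 2.77 to 5.59 FPKM in HFD-C, and the groups overlap in each of the 8 panels.

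The panels of FPKM by library show the size of the differences against the spread of single mice. For Fbxl21 and Naa30 the ranges share only a narrow strip, and for the other rows single mice of both groups lie at the same level. Of the 15 named rows on the lower side, 10 stand on 1 row under 1 symbol and take a continuous range of values.

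Promoter sequence is shown for the 2 leading rows that carry a single symbol, Fbxl21 and Naa30. Each run below covers 250 bases before and 50 bases after the start of transcription in RefSeq (GRCm38.p6), on the plus strand, chr13:56522222-56522521 for Fbxl21 and chr14:49171996-49172295 for Naa30. Capitals mark matches, on either strand, to the GC box GGGCGG, the letters bound by Sp1-type factors.
Fbxl21 promoter: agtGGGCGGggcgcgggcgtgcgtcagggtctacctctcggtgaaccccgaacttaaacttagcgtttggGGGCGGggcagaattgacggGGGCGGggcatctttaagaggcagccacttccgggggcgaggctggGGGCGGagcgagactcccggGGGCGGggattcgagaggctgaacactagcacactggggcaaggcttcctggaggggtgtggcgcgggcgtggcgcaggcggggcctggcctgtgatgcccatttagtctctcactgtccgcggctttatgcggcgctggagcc
Naa30 promoter: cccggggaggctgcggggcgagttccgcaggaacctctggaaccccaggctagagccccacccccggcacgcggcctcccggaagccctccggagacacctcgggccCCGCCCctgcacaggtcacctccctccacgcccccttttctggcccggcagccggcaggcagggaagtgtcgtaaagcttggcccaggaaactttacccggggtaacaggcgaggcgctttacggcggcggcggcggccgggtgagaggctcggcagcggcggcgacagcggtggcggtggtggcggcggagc
The Fbxl21 window holds 5 such matches and the Naa30 window 1, and 35.7% of 32851 mouse promoters of the same length hold at least 1. Neither window holds the E-box CACGTG, found in 7.15% of promoters, or the D-box TTATGTAA, found in 0.938%, which are the letters bound by Clock with Arntl and by Dbp-type factors. GC content was 67.7% and 73.3%, against a median of 52.7% over all promoters. The motifs describe the sequence and say nothing of what binds there.

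Naa30, the catalytic subunit of the N-terminal acetyltransferase NatC, had values of 5.80, 8.11 and 9.25 FPKM in FFD-C, against 9.03, 9.99 and 11.3 FPKM in HFD-C. The gene lies at chr14:49172226-49191031. All 8 FFD-C libraries were under the HFD-C mean, with ranges that met only at the edge (log2 difference -0.37, SE 0.10; limma adjusted p = 0.761). The difference was -0.34 without FFD-C library 1 and -0.27 without libraries 1 and 3.

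Shank3, the master scaffold of the postsynaptic density and a gene whose loss causes an autism-related syndrome in people, had values of 303, 407 and 872 FPKM in FFD-C, against 586, 672 and 996 FPKM in HFD-C. It lies at chr15:89499623-89560261. At 7 of 8 FFD-C libraries the value was under the HFD-C mean, and the highest FFD-C library lay inside the HFD-C range (log2 difference -0.71, SE 0.20; limma adjusted p = 0.761). Without library 1 the difference was -0.66, and without libraries 1 and 3 it was -0.55. Anks1b, another postsynaptic protein, averaged 2229 ± 492 FPKM in FFD-C and 2809 ± 278 FPKM in HFD-C (mean ± SD, n = 8 and 9, here and below; log2 difference -0.36, and -0.22 without libraries 1 and 3). Frmpd4, which links metabotropic glutamate receptors to the scaffold, averaged 127 ± 29.2 FPKM in FFD-C and 179 ± 25.4 FPKM in HFD-C (log2 difference -0.51, without libraries 1 and 3 -0.41).

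Myt1l, a zinc-finger repressor that holds neurons in their identity, ran at 84.9, 132 and 167 FPKM in FFD-C, against 132, 179 and 199.9 FPKM in HFD-C. Its difference was -0.51 (SE 0.14), and -0.34 without libraries 1 and 3. Camsap2, which caps the minus ends of microtubules in dendrites and axons, ran at 65.6, 101 and 139.6 FPKM in FFD-C, against 115, 137 and 154 FPKM in HFD-C (log2 difference -0.48, SE 0.13; -0.31 without libraries 1 and 3). The ranges of both genes overlap, and the FFD-C median of Camsap2 lay under its lowest HFD-C library. Ptprz1, a receptor phosphatase of glia and their precursors, averaged 27.2 ± 5.34 FPKM in FFD-C and 37.0 ± 3.68 FPKM in HFD-C (log2 difference -0.45). Galntl6, of the family that starts O-glycosylation, averaged 2.61 ± 0.592 FPKM in FFD-C and 3.54 ± 0.542 FPKM in HFD-C (log2 difference -0.39). Tlr3, the endosomal receptor for double-stranded RNA, averaged 18.3 ± 3.79 FPKM in FFD-C and 26.3 ± 3.76 FPKM in HFD-C (log2 difference -0.53, without libraries 1 and 3 -0.48). None of these differences passed the test, and adjusted p was 0.761 in limma for each.

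The other 5 rows on the lower side are less certain. Alg10b with Mir7648 (-0.60, and -0.26 without libraries 1 and 3), Yod1 with AA986860 (-0.38, and -0.23) and a second row of Acsl3 with Utp14b (-0.59) each carry 2 symbols, and Dhx33 (-0.70) stands on 2 rows, so reads may be shared or split there. Spcs3, a subunit of the signal peptidase, had a difference of -0.97 that rested on 4 HFD-C libraries at 75.1 to 80.7 FPKM. The other 5 HFD-C libraries lay at 13.6 to 19.8 FPKM and all 8 FFD-C libraries at 12.2 to 22.5 FPKM, while the 8 FD-C libraries lay at 55.5 to 71.6 FPKM.

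On the higher side the row with the smallest p was Cyp2d22, a cytochrome P450 of the family that metabolises drugs and monoamine derivatives. Values were 265, 404 and 484 FPKM in FFD-C, against 193, 257 and 346 FPKM in HFD-C. The gene lies at chr15:82370527-82380260. All 8 FFD-C libraries were above the HFD-C mean, with overlap between 265 and 346 FPKM (log2 difference 0.59, SE 0.17; limma adjusted p = 0.761). The difference was 0.59 without library 1 and 0.58 without libraries 1 and 3. It was 0.58 in XX libraries and 0.59 in XY libraries.

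The other named rows on this side that stand on a single symbol and 1 level had smaller differences than Cyp2d22. Lin37, a subunit of the DREAM repressor of cell cycle genes, had values of 16.5, 18.5 and 22.02 FPKM in FFD-C, against 14.5, 15.7 and 17.6 FPKM in HFD-C (log2 difference 0.27, SE 0.085). Med31, a subunit of the Mediator complex, averaged 10.5 ± 1.41 FPKM in FFD-C and 8.04 ± 1.91 FPKM in HFD-C (log2 difference 0.40, SE 0.14). Plp2, a small membrane protein, averaged 70.2 ± 19.9 FPKM in FFD-C and 50.8 ± 9.07 FPKM in HFD-C (log2 difference 0.44, SE 0.15). Sigirr, a membrane protein that dampens signalling by interleukin-1 and Toll-like receptors, averaged 5.23 ± 1.09 FPKM in FFD-C and 3.54 ± 0.749 FPKM in HFD-C (log2 difference 0.52, SE 0.18). At each of these 4 genes all 8 FFD-C libraries were above the HFD-C mean, and the ranges still overlapped. Rps19bp1 (0.40), Ankrd54 (0.31), Cuta (0.28), Wdr83 (0.21) and Ppp1r12c (0.15) had log2 differences in the same direction. Cdk9, the kinase that releases paused RNA polymerase II, shares its row with Mir2861 and averaged 241 ± 28.2 FPKM in FFD-C and 206 ± 22.9 FPKM in HFD-C (log2 difference 0.22). Ehbp1l1 (0.35) stands on 2 rows and Shc1 (0.41) shares its row with Pygo2.

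Pgm2l1 and a second row of Cdkn1a took 2 separate levels. Pgm2l1, which makes glucose-1,6-bisphosphate in brain, stood at 754 to 1066 FPKM in 6 FFD-C libraries and at 192 and 238 FPKM in the other 2. In HFD-C it stood at 957 FPKM in library 5 and at 141 to 238 FPKM in the other 8 (log2 difference 1.55, SE 0.50). Of all tested rows 722 (4.5%) took 2 levels of this kind over the 17 libraries, and the cause was not tested.

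All 30 leading rows kept their sign in XX and in XY libraries and under every alternative that was run. The rows were chosen by their p in these same libraries, so this agreement is no independent support for them. Without FFD-C libraries 1 and 3, 14 of the 15 lower and 13 of the 15 higher rows had values nearer to 0. The median of the 15 lower rows was -0.51, and -0.44 without FFD-C library 1 and -0.37 without libraries 1 and 3. That of the 15 higher rows was 0.40, and 0.34 and 0.31 under the same omissions.

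Gene lists show where the values leaned, and no list is tested. Members of the postsynaptic and channel lists stood mostly lower in FFD-C, and members of the ribosomal and respiratory lists mostly higher. No member of any list had an adjusted p under 0.05. At these 4 lists the lean shrank when FFD-C libraries 1 and 3 were left out. Their median transcript lengths were 6628, 8209, 1106 and 1321 bases in that order. That of the autism-associated list was 7702 bases, against 3319.5 bases over tested rows. In the group of longest transcripts described further below, from 5241 bases, 79.0% of rows lay below 0 with a median of -0.11. In the shortest group, of 208 to 1809 bases, 26.4% lay below 0 with a median of 0.094.

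Of 27 tested genes of the excitatory postsynapse, 23 were lower and 4 higher in FFD-C, with a median log2 difference of -0.19. Of all rows 51.5% lay below 0, with a median of -0.0066, and of the rows with the longest transcripts 79.0% lay below 0. The median of the list was -0.13 without library 1 and -0.075 without libraries 1 and 3. Its mean log2 level by library had a lowest, median and highest value of 6.42, 6.70 and 7.05 in FFD-C, against 6.72, 6.88 and 7.005 in HFD-C. The ranges overlap, and the lower end of FFD-C extends beyond that of HFD-C. At an unadjusted p under 0.05 the list had 4 lower members and 0 higher, beside 3.74% of all rows lower and 2.23% higher. Besides Shank3 and Frmpd4 in the same structure, Grin2a, an NMDA receptor subunit, averaged 40.4 ± 27.3 FPKM in FFD-C and 67.9 ± 26.6 FPKM in HFD-C (log2 difference -0.90, SE 0.37; -0.39 without libraries 1 and 3). Grm5, a metabotropic glutamate receptor, averaged 23.6 ± 4.84 FPKM in FFD-C and 30.0 ± 2.16 FPKM in HFD-C (log2 difference -0.37, SE 0.16). Gria2, the AMPA receptor subunit that bars calcium, averaged 419 ± 83.5 FPKM in FFD-C and 517 ± 39.1 FPKM in HFD-C (log2 difference -0.33), and Grin1, the obligatory NMDA subunit, had a difference of -0.19.

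The voltage-gated channel list had 21 of 24 members lower and a median of -0.31, which was -0.20 without library 1 and -0.15 without libraries 1 and 3. Mean log2 levels by library were 5.60, 5.98 and 6.37 in FFD-C, against 6.07, 6.35 and 6.5003 in HFD-C. Scn8a, the sodium channel of the axon initial segment, averaged 212 ± 64.2 FPKM in FFD-C and 378 ± 165 FPKM in HFD-C (log2 difference -0.76, SE 0.24). The HFD-C mean rested on 4 libraries at 532 to 580.5 FPKM, and the other 5, at 219 to 275 FPKM, lay inside the FFD-C range of 112 to 312 FPKM. Kcnc1, a fast potassium channel, averaged 9.70 ± 2.07 FPKM in FFD-C and 13.1 ± 2.53 FPKM in HFD-C (log2 difference -0.42, SE 0.16). Scn1a, the sodium channel of interneurons, had 15.1 FPKM in FFD-C library 2, the lowest of its group and apart from the other 7, and a group difference of -0.61, which was -0.26 without that library.

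The GABA receptor and scaffold list had 13 of 16 members lower, with a median of -0.16 (-0.094 without libraries 1 and 3). Gphn, the gephyrin scaffold, averaged 315 ± 46.1 FPKM in FFD-C and 347 ± 18.4 FPKM in HFD-C (log2 difference -0.15, SE 0.070), its value in FFD-C library 1 was the lowest, and the difference was -0.077 without that library. Gad1 (-0.22, and -0.090 without libraries 1 and 3) and the row of Gad2 with Mir3967 (-0.36), enzymes that make GABA, were named from the interneuron list, of which 8 of 14 members were lower.

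Of 22 autism-associated regulators, 20 were lower, with a median of -0.14, -0.15 without library 1 and -0.038 without libraries 1 and 3. With the trend on transcript length removed, as described further below, the median was -0.027. Ash1l, a histone methyltransferase, averaged 105 ± 31.3 FPKM in FFD-C and 138 ± 8.98 FPKM in HFD-C (log2 difference -0.45, SE 0.17; -0.24 without libraries 1 and 3). Auts2, a chromatin regulator on 2 rows, had a difference of -0.48 (SE 0.24), and -0.30 without library 3 and -0.16 without libraries 1 and 3. Fmr1, the RNA-binding protein lost in fragile X syndrome, averaged 24.3 ± 3.21 FPKM in FFD-C and 29.0 ± 1.93 FPKM in HFD-C (log2 difference -0.26, SE 0.13). In the presynaptic release list 17 of 25 members were lower, with a median of -0.061. Syn2, a synapsin of synaptic vesicles, averaged 54.5 ± 16.3 FPKM in FFD-C and 86.6 ± 25.8 FPKM in HFD-C (log2 difference -0.65, SE 0.25). Rims1, a scaffold of the active zone on 2 rows, took 2 levels: 4 HFD-C libraries lay at 260 to 334 FPKM, the other 5 at 36.5 to 62.1 FPKM and the FFD-C libraries at 21.9 to 64.1 FPKM.

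**Figure D2:**
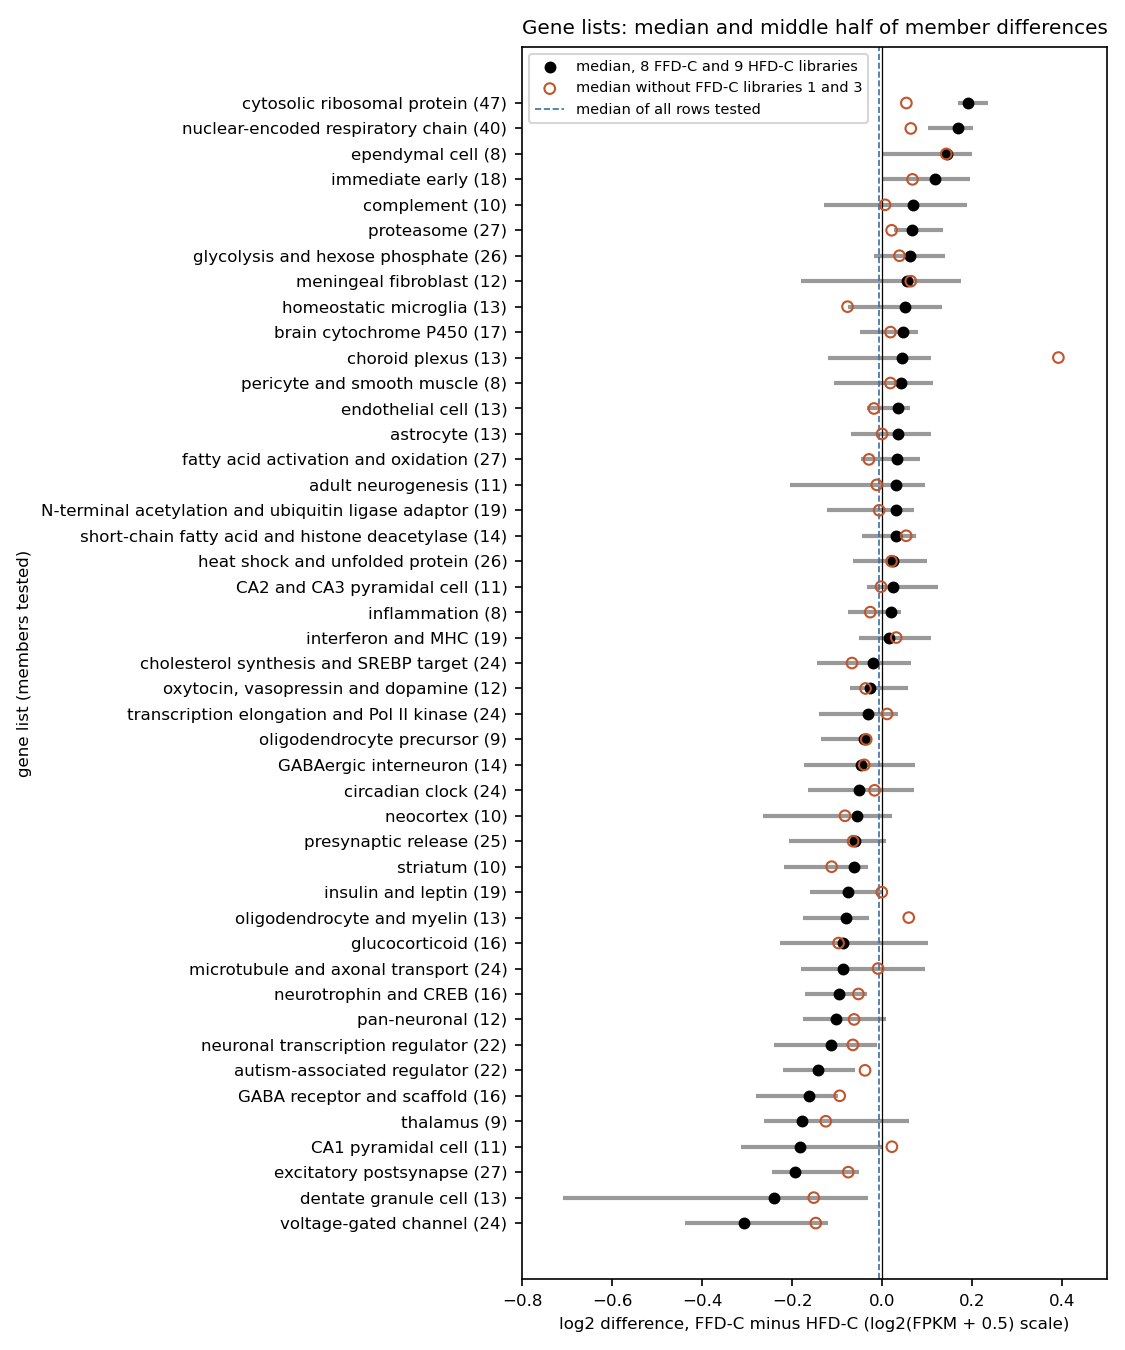
Median log2 difference, FFD-C minus HFD-C, of each gene list with at least 8 tested members (filled points, with bars from the lower to the upper quartile of the members) and the median without FFD-C libraries 1 and 3 (open circles); the dashed line is the median of all rows, -0.0066. The voltage-gated channel list lies at -0.31 with all libraries and at -0.15 without the 2, and the ribosomal protein list at 0.19 and 0.054.

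The plot of list medians sets these groups of genes side by side. Filled points spread to both sides of the dashed line, and the open circles of the postsynaptic, channel and ribosomal lists lie nearer to it than the filled ones.

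Of 47 tested cytosolic ribosomal protein genes, 46 were higher in FFD-C and 1 lower, beside 26.4% of the rows with the shortest transcripts below 0. The median of the list was 0.19, 0.16 without library 1 and 0.054 without libraries 1 and 3. Mean log2 levels by library were 6.72, 7.14 and 7.72 in FFD-C, against 6.76, 6.95 and 7.41 in HFD-C. The ranges overlap, but the upper end of HFD-C was set by library 8 alone, and its other libraries lay at 6.76 to 6.99. Of the members, 0 had an unadjusted p under 0.05. Rpl27 averaged 133 ± 36.9 FPKM in FFD-C and 106 ± 15.3 FPKM in HFD-C (log2 difference 0.30, SE 0.16). In the nuclear-encoded respiratory chain, the machinery of oxidative phosphorylation, 36 of 40 members were higher, with a median of 0.17 (0.064 without libraries 1 and 3). Ndufa3, a complex I subunit, averaged 25.7 ± 4.89 FPKM in FFD-C and 21.4 ± 3.796 FPKM in HFD-C (log2 difference 0.26, SE 0.13), and Cox8a of complex IV averaged 509 ± 114 FPKM in FFD-C and 426 ± 75.1 FPKM in HFD-C (log2 difference 0.25). Of 27 proteasome genes 21 were higher, with a median of 0.068, which was 0.021 without libraries 1 and 3 and 0.017 to 0.11 with single libraries left out. Psmc5, an ATPase of its cap, averaged 83.7 ± 16.0 FPKM in FFD-C and 71.3 ± 4.59 FPKM in HFD-C (log2 difference 0.22, SE 0.10; 0.086 without libraries 1 and 3).

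**Figure D3:**
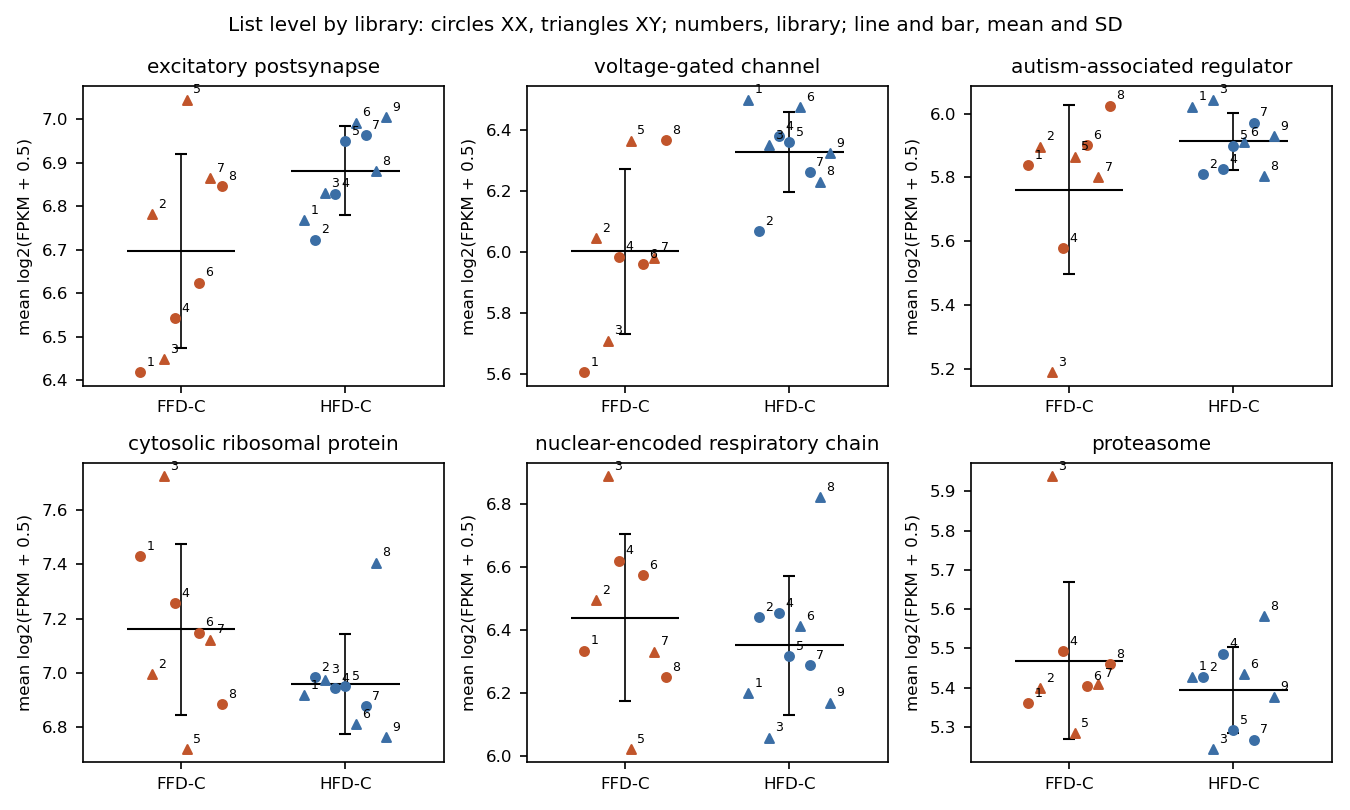
Mean log2(FPKM + 0.5) of the tested members of 6 gene lists in each library, FFD-C at the left and HFD-C at the right, with circles for XX, triangles for XY, and a line and bar for mean and SD. The excitatory postsynapse level ran over 6.42 to 7.05 in FFD-C and 6.72 to 7.005 in HFD-C, and the groups overlap in every panel.

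The list levels by library show that the FFD-C libraries were more spread than the HFD-C libraries at the postsynaptic and channel lists, and that no list separates the groups.

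The circadian clock list was mixed, with 15 of 24 members lower and a median of -0.050 (-0.016 without libraries 1 and 3). At an unadjusted p under 0.05 the list had 2 lower members, Fbxl21 among them, and 0 higher, beside 3.74% of all rows lower and 2.23% higher. Cry1, a repressor of the clock, averaged 2.14 ± 0.454 FPKM in FFD-C and 1.97 ± 0.320 FPKM in HFD-C (log2 difference 0.089). The activators Clock (-0.10) and Arntl (-0.0053), the repressors Per1 (-0.23) and Per2 (-0.0053), and the outputs Dbp (-0.13), Nr1d1 (-0.13) and Nr1d2 (-0.20) had log2 differences no larger in size than that of Per1. The hour at which tissue was taken is not given in the sources used here.

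Transcription regulators were named from 2 lists. Of 22 neuronal regulators 17 were lower, with a median of -0.11. Bcl11b, a factor of CA1 and dentate neurons, averaged 388 ± 154 FPKM in FFD-C and 523 ± 136 FPKM in HFD-C (log2 difference -0.49, SE 0.24; -0.29 without libraries 1 and 3). Of 24 genes of transcription elongation and polymerase kinases, 15 were lower. Polr2a, the largest subunit of RNA polymerase II, averaged 9.90 ± 3.26 FPKM in FFD-C and 12.7 ± 1.52 FPKM in HFD-C (log2 difference -0.40, SE 0.15; -0.15 without libraries 1 and 3), and Aff4, a scaffold of the super elongation complex, averaged 179 ± 39.5 FPKM in FFD-C and 217 ± 13.9 FPKM in HFD-C (log2 difference -0.30, SE 0.12; -0.17 without them). In the microtubule and axonal transport list 15 of 24 were lower, among them the kinesin Kif5c (-0.18) and Kif1b (-1.09), which stands on 2 rows.

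Lipid and sugar lists had medians close to that of all rows. The cholesterol synthesis list, with targets of the sterol-sensing factor SREBP, had 14 of 24 members lower and a median of -0.019. Insig1, which holds SREBP in the endoplasmic reticulum, averaged 124 ± 15.9 FPKM in FFD-C and 149 ± 43.1 FPKM in HFD-C (log2 difference -0.23, SE 0.10; -0.14 without HFD-C library 7), and Sc5d, a late enzyme of the pathway, averaged 20.6 ± 1.99 FPKM in FFD-C and 23.2 ± 2.603 FPKM in HFD-C (log2 difference -0.17, SE 0.075). Mvk, the mevalonate kinase, averaged 13.3 ± 1.53 FPKM in FFD-C and 11.6 ± 2.33 FPKM in HFD-C, higher in FFD-C (log2 difference 0.21). Of 27 genes of fatty acid activation and oxidation, 17 were higher, with a median of 0.033. Its members under an unadjusted p of 0.05 were on the lower side, Ppargc1a, a coactivator of mitochondrial genes (-0.39, and -0.25 without libraries 1 and 3), and the first row of Acsl3 with Utp14b (-0.19). Of 17 brain cytochrome P450 genes 10 were higher, with Cyp4f15 at 40.9 ± 11.4 FPKM in FFD-C and 32.8 ± 5.90 FPKM in HFD-C (log2 difference 0.29, SE 0.14; 0.19 without library 1) beside Cyp2d22. Of 26 genes of glycolysis and hexose phosphates 17 were higher, with a median of 0.062, and Pgm3, a phosphoglucomutase of the hexosamine pathway, had a difference of -0.19 (SE 0.076).

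Signalling lists were small in their medians. The neurotrophin and CREB list had 13 of 16 members lower, with a median of -0.10, and -0.028 without library 1. Immediate early genes, switched on by neuronal activity, had 13 of 18 members higher and a median of 0.12, which was -0.0034 without library 1. Of 19 insulin and leptin genes 14 were lower (-0.075), and of 16 glucocorticoid genes 11 were lower (-0.086), among which the metal-binding Mt1 went the other way at 1032 ± 200.5 FPKM in FFD-C and 833 ± 107 FPKM in HFD-C (log2 difference 0.30, SE 0.13). Of 8 tested inflammation genes 5 were higher (0.019), as were 6 of 10 complement genes (0.069) and 11 of 19 interferon and MHC genes (0.016).

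Receptors through which gut fermentation products act were near 0 in this tissue. Ffar2, a receptor for short-chain fatty acids, had at most 0.0326 FPKM in FFD-C and 0.0322 FPKM in HFD-C. Ffar3, its relative, was listed at 0 in all 17 libraries, and Hcar2, a receptor for butyrate and niacin, had at most 0.221 FPKM in FFD-C and 0.237 FPKM in HFD-C. Slc16a1, a transporter of lactate, ketone bodies and short-chain fatty acids, averaged 5.496 ± 0.633 FPKM in FFD-C and 5.54 ± 0.819 FPKM in HFD-C (log2 difference -0.012). Slc16a7, a related transporter of neurons, averaged 42.5 ± 17.4 FPKM in FFD-C and 57.0 ± 5.90 FPKM in HFD-C (log2 difference -0.75, SE 0.32), with 2.46 FPKM in FFD-C library 6 and a difference of -0.25 without it. Of 14 tested genes of this list, which also holds histone deacetylases, 8 were higher and 6 lower.

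Lists of cell types and neighbouring regions moved with FFD-C library 1. The dentate granule list had 10 of 13 members lower and a median of -0.24, which was -0.10 without library 1, and the CA1 list had 8 of 11 lower with -0.18 and -0.012. By mark the dentate median was -0.74 in XX and 0.24 in XY libraries, and the CA1 median -0.047 and -0.29. The CA2 and CA3 list had a median of 0.024, with -0.38 in XX and 0.31 in XY libraries. FFD-C libraries 1 and 6, which had the lowest dentate levels, are both XX libraries. Tle4, a corepressor named from the neocortex list, averaged 22.2 ± 5.32 FPKM in FFD-C and 26.8 ± 2.87 FPKM in HFD-C (log2 difference -0.30, SE 0.10; -0.14 without libraries 1 and 3). All 4 hypothalamic genes were higher, with a median of 0.29 and 0.16 without library 1. Pomc, the hormone precursor, averaged 29.2 ± 27.1 FPKM in FFD-C and 10.1 ± 7.74 FPKM in HFD-C (log2 difference 1.36, SE 0.57). Astrocyte, homeostatic microglia and endothelial lists had medians of 0.035, 0.051 and 0.035, which were 0.035, -0.033 and -0.031 without library 1, while 11 of 13 oligodendrocyte and myelin genes were lower, with a median of -0.081, and 0.010 without library 1. The choroid plexus list had a median of 0.045, and 0.21 without library 1, with -1.06 in XX and 0.83 in XY libraries. Cldn5, the tight junction protein of brain endothelium on 2 rows, averaged 26.9 ± 7.14 FPKM in FFD-C and 20.1 ± 5.46 FPKM in HFD-C (log2 difference 0.41, SE 0.17).

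Genes often measured in studies of maternal diet did not pass the test. Bdnf, the activity-dependent neurotrophin, averaged 40.9 ± 9.99 FPKM in FFD-C and 41.3 ± 9.91 FPKM in HFD-C (log2 difference -0.033, SE 0.15; limma adjusted p = 0.969). Syp of synaptic vesicles averaged 837 ± 76.5 FPKM in FFD-C and 789 ± 87.3 FPKM in HFD-C (log2 difference 0.091, SE 0.091), and Dlg4, the PSD-95 scaffold on 2 rows, had a difference of 0.052 (SE 0.081). Grin2b, an NMDA receptor subunit, had higher values in FFD-C, at 3.04 ± 0.676 FPKM in FFD-C and 2.42 ± 0.966 FPKM in HFD-C (log2 difference 0.32, SE 0.19; adjusted p = 0.763 in limma). Gria1, an AMPA receptor subunit, had a difference of -0.20, with 99.2 FPKM in FFD-C library 1, and -0.022 without it. Among activity-dependent genes, Fos averaged 4.17 ± 2.099 FPKM in FFD-C and 3.58 ± 1.08 FPKM in HFD-C (log2 difference 0.11, SE 0.21) and Arc averaged 163 ± 88.9 FPKM in FFD-C and 140.1 ± 39.3 FPKM in HFD-C (log2 difference 0.10, SE 0.23). Without library 1 these differences were -0.030 and -0.057.

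Of microglial genes, Tmem119 averaged 5.20 ± 1.13 FPKM in FFD-C and 4.64 ± 0.544 FPKM in HFD-C (log2 difference 0.13, SE 0.11; 0.057 without library 1) and P2ry12, the purine receptor of surveying microglia, averaged 40.8 ± 10.8 FPKM in FFD-C and 44.6 ± 15.6 FPKM in HFD-C (log2 difference -0.076, SE 0.24). Cx3cr1, the fractalkine receptor, had 1 library far above the rest in each group, 476 FPKM in FFD-C library 5 and 215 FPKM in HFD-C library 6, and a difference of 0.28 (SE 0.53). Trem2, on 2 rows and at 2 levels, had a difference of 0.88 (SE 0.67). Oxtr, the oxytocin receptor tied to social behaviour, averaged 1.63 ± 0.596 FPKM in FFD-C and 1.59 ± 0.596 FPKM in HFD-C (log2 difference 0.041, SE 0.22). Gfap of astrocytes (-0.17, SE 0.19), Mbp of myelin (-0.029, SE 0.25) and Ttr (-0.55, SE 1.57) had log2 differences smaller than their standard errors, and without library 1 they were 0.064, 0.074 and -0.032 in the same order.

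Libraries also differed in how their values depended on transcript length and on GC content. For each library the deviation of a row from its mean over all 49 libraries was regressed on transcript length and GC over the 13264 rows (82.75% of those tested) with a reference transcript. The length slope, in log2 units per doubling of length, averaged -0.0390 ± 0.0877 in FFD-C and 0.0280 ± 0.0337 in HFD-C (SD, n = 8 and 9), a difference of -0.0670 (exact permutation test, two-sided, p = 0.0356). The lowest value, -0.217, was that of FFD-C library 3. Leaving out single libraries gave differences of -0.0831 to -0.0416, with exact permutation p of 0.00551 to 0.0812. The p was above 0.05 when FFD-C library 1, 3, 4 or 7 or HFD-C library 1, 3, 5, 6, 7 or 9 was left out. Without FFD-C libraries 1 and 3 the difference was -0.0307 (exact permutation p = 0.177). The GC slope, per 10 percentage points, averaged -0.0297 ± 0.0836 in FFD-C and -0.122 ± 0.0374 in HFD-C, a difference of 0.0921 (exact permutation p = 0.00469), and 0.0815 without libraries 1 and 3. The slopes say how a library stands against the mean of the series and not how its reads depend on length as such.

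**Figure D4:**
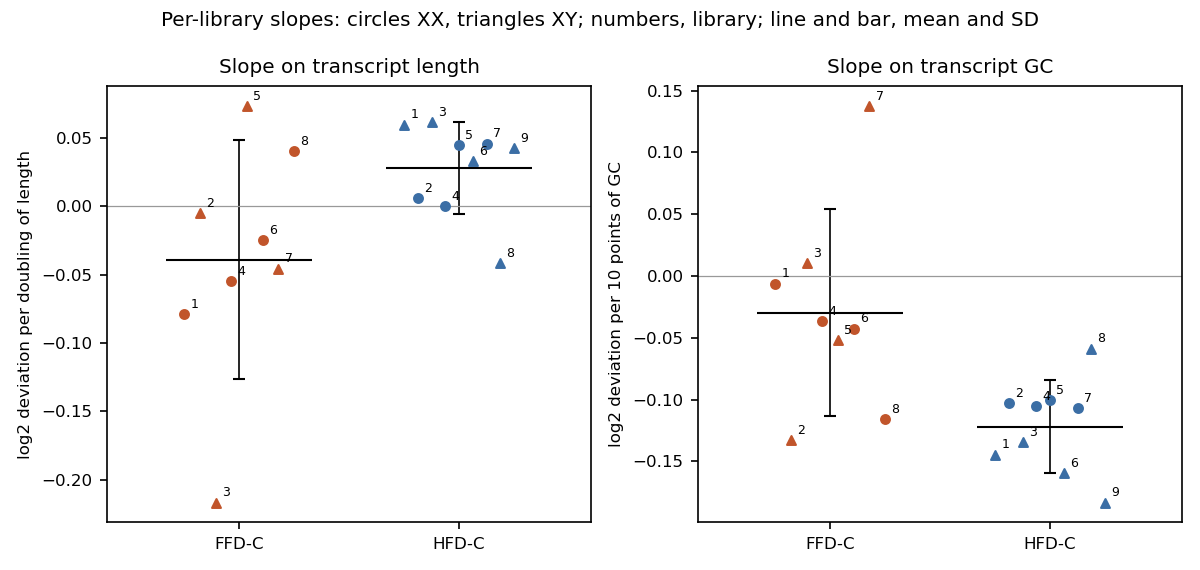
Slope of each library's deviations on transcript length (log2 units per doubling) and on GC content (log2 units per 10 percentage points), with FFD-C at the left and HFD-C at the right (circles XX, triangles XY; line and bar, mean and SD). FFD-C averaged -0.0390 for length and -0.0297 for GC, and HFD-C averaged 0.0280 and -0.122, with overlapping ranges in both panels.

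The slope plot shows that FFD-C libraries are spread more widely than HFD-C libraries in both measures. Single genes differed by length in the same direction. Rows were also cut into 5 equal groups by length. In the group with the longest transcripts the median difference was -0.11, 79.0% lay below 0, and 228 rows had lower and 10 higher values at an unadjusted p under 0.05. In the shortest group the median was 0.094, 26.4% lay below 0, and 26 rows had lower and 129 higher values. With 5 groups by GC content, the lowest had 273 lower and 12 higher rows, and the highest had 19 lower and 112 higher. Across the 13264 rows the Spearman correlation of the difference was -0.424 with length and 0.364 with GC content, as a description over rows that share libraries. Median length was 6441 bases for the 15 leading lower rows and 2644.5 bases for the 15 higher ones, with median GC contents of 44.4% and 56.3%.

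With the length trend taken out of each library, an alternative added after the data had been seen, 410 rows were lower and 433 higher at an unadjusted p under 0.05, and the median of the leading rows was -0.40 on the lower side and 0.31 on the higher. The postsynaptic list then had a median of -0.085, the channel list -0.18, the autism-associated list -0.027, the ribosomal list 0.13 and the respiratory list 0.081. With the GC trend removed the same medians were -0.14, -0.25, -0.10, 0.19 and 0.16. Fbxl21 was at -0.64 and -0.58 under these corrections. The sources used here give neither RNA quality nor insert size, and their part was not tested.

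Within the XX libraries, 4 against 4, limma called 2 of 16029 rows (0.0125%), and at an unadjusted p under 0.05 there were 1003 (6.26%). LOC105244657, an uncharacterised locus, averaged 2.19 ± 1.04 FPKM in FFD-C and 3.40 ± 0.486 FPKM in HFD-C over all libraries of the groups and differed by -1.01 in XX libraries and -0.28 in XY libraries (limma adjusted p = 0.0485 in XX). The row of the predicted genes Gm11578 and Gm38388 differed by 1.49 in XX and 0.054 in XY libraries (limma adjusted p = 0.0485 in XX) and took 2 levels. Both calls were lost without FFD-C libraries 1 and 3, where 0 rows passed. Leaving out single libraries gave between 0 and 2 calls, not always of these rows: without FFD-C library 6 the call was Nat8f4. Within the XY libraries 0 rows passed (0%), with 935 (5.83%) at an unadjusted p under 0.05.

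Whether a difference depended on the mark was tested directly, and 0 rows passed (0%), with 1050 (6.55%) at an unadjusted p under 0.05 in limma. The 5 leading rows all had adjusted p = 0.603. Nek6, a kinase of mitosis, differed by -0.39 in XX and 0.41 in XY libraries. Gatad2a, a subunit of the NuRD chromatin complex, differed by -0.10 and 0.44, and Sel1l3 by 0.42 and -0.43 in the same order. Tmem114 (-1.08 and 0.91) and Vwa3b (-1.14 and 0.67) were low genes with opposite signs in XX and XY libraries. FFD-C library 1 is an XX library and enters all XX values.

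FD-C against CD-C sets the other maternal codes side by side and shares no library with FFD-C against HFD-C. There limma called 32 rows (0.2%), and 1529 (9.54%) had an unadjusted p under 0.05. Fbxl21 averaged 3.07 ± 0.822 FPKM in FD-C and 2.88 ± 0.478 FPKM in CD-C (log2 difference 0.057, against -0.66 for FFD-C minus HFD-C). Cyp2d22 averaged 429.5 ± 46.3 FPKM in FD-C and 337 ± 102 FPKM in CD-C (0.41, against 0.59). The lower CD-C mean rested on libraries 2, 4 and 8, at 215, 197 and 242 FPKM. The other CD-C libraries lay at 372 to 451 FPKM, and the FD-C libraries at 389 to 540 FPKM. Naa30 differed by -0.30 between FD-C and CD-C, and Shank3 by 0.19. Of the 15 leading lower rows 11 were also lower in FD-C than in CD-C, with a median of -0.15, and of the 15 higher rows 8 were also higher, with a median of 0.015. The median over all rows was -0.013 for FD-C minus CD-C. For the same difference the postsynaptic list had a median of -0.0080 (against -0.19 for FFD-C minus HFD-C) and the channel list 0.12 (against -0.31). The ribosomal list had -0.074 (against 0.19) and the respiratory list -0.077 (against 0.17).

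**Figure D5:**
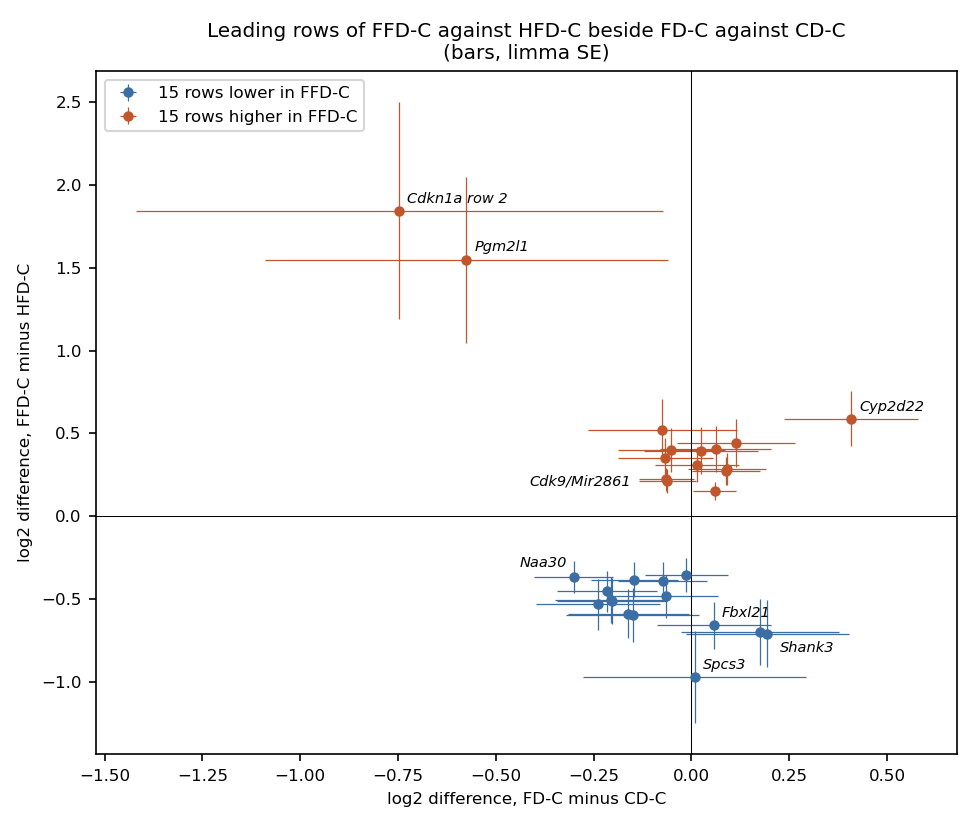
Log2 difference FFD-C minus HFD-C (vertical axis) against FD-C minus CD-C (horizontal axis) for the 30 leading rows, chosen by the first, with bars for the limma SE and lines at 0. Cyp2d22 lies at 0.59 and 0.41, and Fbxl21 at -0.66 and 0.057.

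The plot against FD-C minus CD-C shows the lower rows mostly at the left of 0 and the higher rows on both sides of it. A test of the departure of FFD-C minus HFD-C from FD-C minus CD-C gave 0 rows (0%) past the threshold in limma and 617 (3.85%) at an unadjusted p under 0.05. The leading rows of that test all had adjusted p = 0.997. Scn8a differed by -0.76 for FFD-C minus HFD-C and by 0.56 for FD-C minus CD-C. Ing2, a reader of histone methylation, had 0.14 and -0.24. Rchy1, a ubiquitin ligase, had 0.36 and -0.40. Myc, the growth regulator, had -0.21 and 0.27, and Srsf3, a splicing factor on 2 rows, 0.12 and -0.42.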

How the data were processed

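Hippocampal RNA was extracted with phenol-chloroform and sequenced by the BGI-500 workflow, per the labels' protocols. The authors deposited 1 table of FPKM with 42521 rows and a column per library. Trimmomatic 0.38, HISAT2, StringTie 1.3.4d and the build GRCm38.p6 are named, per the submitters' processing notes, and the sources used here state neither their roles and settings nor the use of strand. More than 1 symbol stands on 1146 rows, and 1775 symbols are spread over several rows, so that overlapping, antisense and near-identical genes are uncertain. Columns summed to 1222660 to 1299230 FPKM in FFD-C and 1245490 to 1288300 FPKM in HFD-C.

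Groups were taken from the mouse group in the labels, marks and prefixes from the sample titles, and library numbers follow the order of deposit. Rows averaging 0.5 FPKM or more over all libraries, 16029 in number, were fitted as log2(FPKM + 0.5) in R 4.3.3 with limma 3.58.1 (lmFit, eBayes with trend), with a term for each of 6 groups and for the mark. All p-values are two-sided, adjusted over all rows after Benjamini and Hochberg, with 0.05 as the threshold. Differences on this scale understate the change of low genes. The fit was tested on simulated data. The labels do not say that mice of a group came from separate litters, so p-values measure the spread between these libraries. The comparison, its gene lists and its named genes were chosen with earlier results of these data known. Named rows have a symbol that is neither predicted, a pseudogene nor Y-linked and a mean of at least 1 FPKM. They are the 15 with the smallest p in each direction, up to 3 members per list at an unadjusted p under 0.05, the 5 leading rows for the mark and for the departure from FD-C against CD-C, and a panel of 15 genes. A row takes 2 levels where its largest gap exceeds 1 on the log2 scale and 0.5 of its range. Transcript length and GC content are those of the GENCODE transcripts. Alternatives changed the pseudocount, filter, scaling, mark term, prefixes, GC trend, row merging and libraries used. Some genes that meet the rule for named rows are not reported here.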

Additional observations from a re-analysis of the deposited data

Results flagged for a closer look

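Within a group, a library was marked where its gap to the nearest other library was too large a part of the range of the group by Dixon's 95% criterion. Chance marks about 5% of groups of values. Of 290 tested, 26 were marked against 14 from that share, and of 184 groups of values of named rows 18 were.

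In FFD-C, library 1 was lowest for Gphn (215 FPKM, others 296 to 355), Rchy1 (36.6 FPKM) and Gria1 (99.2 FPKM, others 209.8 to 341), and had the highest endothelial level (4.67 on the log2 scale). Library 2 had 15.1 FPKM of Scn1a, against 84.5 to 136 in the others. Library 3 had the highest proteasome level (5.94, others 5.28 to 5.49) and the lowest microtubule and axonal transport level (8.20). Library 5 had 476 FPKM of Cx3cr1, against 35.7 to 57.9 in the others, and the highest presynaptic level (8.01). Library 6 had 2.46 FPKM of Slc16a7, against 34.7 to 55.3.

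In HFD-C, library 2 was lowest for Grin2a (13.8 FPKM, others 40.9 to 104), Sel1l3 (15.5 FPKM) and P2ry12 (12.3 FPKM, others 37.3 to 64.1). Library 3 was lowest for Cdk9 with Mir2861 (158 FPKM) and for the pan-neuronal level (8.03), and had the highest level of the blood list (5.91, others 3.72 to 4.65). Library 5 was highest for Pgm2l1 (957 FPKM). Library 6 was lowest for Ankrd54 (6.11 FPKM) and highest for Cx3cr1 (215 FPKM). Library 7 was lowest for Med31 (3.66 FPKM, others 7.41 to 10.8) and highest for Acsl3 with Utp14b (343 FPKM). Library 8 was highest for Cuta (12.3 FPKM), Ndufa3 (31.0 FPKM) and the ribosomal level (7.41), and lowest for Auts2 (6.28 FPKM). Library 9 had the lowest level of the short-chain fatty acid and histone deacetylase list (4.85).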

How the results depend on the processing

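No row passed between FFD-C and HFD-C under any of the 34 alternatives, with a smallest adjusted p of 0.148 in limma on means per title prefix and 0.99991 without FFD-C libraries 1 and 3. At an unadjusted p under 0.05 there were 869 lower and 603 higher rows on means per title prefix and 859 lower and 663 higher without FFD-C library 5. Of 3110 values of named rows under these alternatives 57 changed sign, in 13 rows. In XX libraries 0 rows were called with a pseudocount of 1, a mean of at least 5 FPKM, the 2 groups alone, libraries centred on their median, without prefix HFD1.5, and without FFD-C libraries 1 and 3. There was 1 call without a filter on low rows (Gm33914), after quantile normalization (Gm11578 with Gm38388) and without prefix FFD2.2 (Nat8f4). With the length trend removed Lnp1 was called in XX libraries beside LOC105244657 and Gm11578 with Gm38388. Leaving out single libraries gave 0 to 2 calls in XX libraries, 0 to 1 in XY libraries and 0 to 1 for dependence on the mark, which had 1 with the length trend removed. Signs turned on means per title prefix for Nek6 (-0.043), Sel1l3 (0.026), Cx3cr1 (-0.11) and Arc (-0.021). Without prefix FFD2.2 they turned for Bdnf (0.094), Nek6 (-0.012), Sel1l3 (0.030), Cx3cr1 (-0.16) and Fos (-0.012), and without prefix HFD1.5 for Nek6 (-0.0068), Oxtr (-0.12) and Mbp (0.053). With the GC trend removed Bdnf was 0.080 and P2ry12 0.067; with the length trend removed Bdnf was 0.0097, Sel1l3 0.027 and Mbp 0.031. With rows of a symbol summed Srsf3 was -0.099. Without FFD-C libraries 1 and 3 Sel1l3 was 0.0034, Mbp 0.12 and Ttr 0.47. Leaving out single libraries gave -0.057 to 0.21 for Arc, -0.10 to 0.11 for Bdnf, -0.16 to 0.53 for Cx3cr1, -0.030 to 0.26 for Fos, -0.28 to 0.064 for Gfap, -0.18 to 0.12 for Mbp, -0.057 to 0.095 for Nek6, -0.055 to 0.13 for Oxtr, -0.31 to 0.084 for P2ry12, -0.12 to 0.042 for Sel1l3, -0.21 to 0.13 for Tmem114 and -1.27 to 0.066 for Ttr. The cause was not tested. No paired analysis was possible because the library numbers follow the order of deposit and pair no mice. The length trend and the omission of FFD-C libraries 1 and 3 were chosen after the data had been seen. Depth is unknown, so counting error at genes of low FPKM cannot be given.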
